A study of Drosophila melanogaster with 2 samples.

Results

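Intronic binding sites of the Senseless-2 protein inside long genes of Drosophila melanogaster were described from chromatin immunoprecipitation and sequencing (ChIP-seq) of whole embryos aged 0 to 24 h. The embryos came from transgenic flies carrying an eGFP fusion of sens-2, chromatin was sonicated to fragments of 200 to 800 bp, and bound DNA was precipitated with an antibody against GFP. There were 2 biological replicates of this 1 group, and no group without the fusion or with another factor was analysed. The labels do not give the promoter that drives the fusion, and a whole embryo mixes all cell types, so the sites cannot be placed in a tissue.

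The sites were taken from the authors' conservative peak list, which keeps peaks that both replicates rank alike under the irreproducible discovery rate (IDR). Each peak has a summit, the single base with the most signal, and a signal value, the authors' own measure of peak height, which is compared here only within a list or between lists that share it. All 2883 conservative peaks have the same position and signal in the ranked list that compares the replicates. A summit was kept when it lay more than 500 bp from every annotated transcript start, outside all exons, and inside a protein-coding gene spanning 50 kb or more. This selected 319 of 2883 summits on 7 assembled chromosomes, or 11.1%. A further 713 summits met the same conditions in shorter genes, 463 were intergenic, 1290 lay within 500 bp of a transcript start and 98 lay in exons.

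Senseless-2 binds DNA through zinc fingers and is the closest relative of Senseless, a factor of sensory organ precursors. Senseless-type zinc fingers recognise a short DNA core, AAATCA, and can repress or activate genes. Long fly genes often encode regulators, adhesion molecules and channels, and their introns carry enhancers, alternative promoters and whole nested genes. An intronic site may therefore belong to the host gene, to a nested gene or to a gene nearby, and binding alone does not tell which.

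To show what these sites look like, the summit and 50 bp to either side are given for the 8 strongest summits on arms 2L, 3L and 3R and on X that hold AAATCA, with 1 summit per gene, and for the 3 strongest on them that lack it. Stronger sites with the core elsewhere, such as the one in sbb, are not printed. All sequences are the plus strand of Release 6 of the genome (dm6), read 5′ to 3′. Capitals mark AAATCA or its reverse complement TGATTT. The first set lies in fz2 (chr3L:19181193-19181293), ush (chr2L:496018-496118), scrib (chr3R:26588384-26588484), Ubx (chr3R:16702898-16702998), Trim9 (chr2L:10554928-10555028), heph (chr3R:31945869-31945969), hth (chr3R:10597748-10597848) and Antp (chr3R:6920135-6920235).
fz2: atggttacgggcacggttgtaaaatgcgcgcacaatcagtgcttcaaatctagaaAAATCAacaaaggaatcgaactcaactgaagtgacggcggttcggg
ush: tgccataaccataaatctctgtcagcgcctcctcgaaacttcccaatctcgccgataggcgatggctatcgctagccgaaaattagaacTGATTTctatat
scrib: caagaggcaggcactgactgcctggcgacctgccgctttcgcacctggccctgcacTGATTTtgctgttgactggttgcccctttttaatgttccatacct
Ubx: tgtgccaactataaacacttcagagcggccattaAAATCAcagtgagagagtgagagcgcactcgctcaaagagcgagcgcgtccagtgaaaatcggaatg
Trim9: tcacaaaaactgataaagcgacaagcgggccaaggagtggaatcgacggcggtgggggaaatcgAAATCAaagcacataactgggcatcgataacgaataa
heph: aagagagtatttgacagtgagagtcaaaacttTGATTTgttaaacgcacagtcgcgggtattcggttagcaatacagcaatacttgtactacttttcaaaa
hth: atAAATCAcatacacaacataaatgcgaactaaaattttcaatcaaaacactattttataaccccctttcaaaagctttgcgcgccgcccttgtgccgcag
Antp: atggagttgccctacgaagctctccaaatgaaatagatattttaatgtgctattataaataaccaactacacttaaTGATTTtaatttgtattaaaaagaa
The set without the core lies in Tlk (chrX:3742166-3742266), mub (chr3L:21880452-21880552) and Hr4 (chrX:1947706-1947806).
Tlk: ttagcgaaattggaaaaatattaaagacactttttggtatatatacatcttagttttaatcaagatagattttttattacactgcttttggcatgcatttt
mub: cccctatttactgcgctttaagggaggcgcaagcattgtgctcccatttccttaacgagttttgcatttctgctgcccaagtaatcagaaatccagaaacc
Hr4: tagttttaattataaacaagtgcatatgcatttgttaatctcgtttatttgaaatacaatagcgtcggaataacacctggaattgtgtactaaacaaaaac
Each of the first 8 windows holds the core once, with its middle between 7.5 bp from the summit in fz2 and 45.5 bp in hth. GC content ranged from 24.8% in Tlk to 55.4% in scrib. The Tlk window is mostly A and T, with no match to the core on either strand.

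The strongest site of the set was in intron 2 of Tlk, which encodes the Tousled-like kinase, a serine/threonine kinase of chromatin assembly. Its summit at X:3742216 had a signal of 588.6, the rank of 19 in the whole list, and it read 330.5 in replicate 1 and 261.0 in replicate 2. It lay 2319 bp from the nearest transcript start, a start of Tlk itself. The next strongest, in intron 2 of sbb, had a signal of 367.7, with 224.2 and 145.7 in the replicates. mub, which encodes a KH-domain RNA-binding protein, carried 1 summit of 349.6 in intron 2, 925 bp from a start of mub, with 207.2 in replicate 1 and 145.3 in replicate 2. Replicate 1 gave the higher value at all 3 sites, and each replicate's values are on the scale of its own list.

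Hr4, a nuclear receptor of the ecdysone response, held 3 of the 15 strongest sites. Their signals were 318.5 and 228.3 in intron 2 and 243.8 in intron 3, and a weaker summit of 73.56 followed in intron 4. All 4 lay within 21.4 kb of each other in a gene of 66.0 kb, and none held AAATCA. The Wnt and planar polarity receptor gene fz had 1 strong site of 283.1 in intron 1 and 3 weaker ones of 56.37, 109.5 and 82.00 in introns 1 and 4. Fili reached 262.8 in intron 1, 999 bp from a Fili start, and prage reached 257.6 in intron 2, 539 bp from a prage start. CG32264, sick and rdx had best signals of 235.1, 222.4 and 219.6, rdx being the roadkill gene, an adaptor of a ubiquitin ligase. Only 1 of the 15 strongest summits, the strongest in sbb, held AAATCA within 50 bp.

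A pair of the 15 strongest summits lay inside a smaller gene nested in the host intron. The site assigned to CG33158, with a signal of 249.4, was also inside argos (aos), which encodes a secreted antagonist of the EGF receptor, 3090 bp from an aos start. The site of 211.1 assigned to CG1677 was inside Dok, which encodes an adaptor of tyrosine kinase signalling, 851 bp from a Dok start. In all, 17 of the 319 summits lay within a second protein-coding gene.

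Each assigned to the longest gene around it, the 319 summits had 131 host genes among 313 protein-coding genes of 50 kb or more, which is 41.9%. A pair of other long genes contain summits assigned elsewhere, so that 133 of the 313 contain one. They are CG46458, inside the longer Antp, and CG15465, which has the same span as rg. Of these hosts, 50 held 1 summit, 35 held 2, 20 held 3 and 26 held 4 or more, and those 26 carried 139 summits, or 43.6%. Of the genes of 100 kb or more, 35 of 87 (40.2%) were hosts, against 96 of 226 (42.5%) of those between 50 and 100 kb, and the median host spanned 76.4 kb against 74.5 kb for the other long genes. Myo81F, the longest at 1966 kb, and Pzl, lovit and CG17684, which follow, held none. A summit at the gene's own promoter was listed for 46 of 131 hosts (35.1%) and for 19 of the 182 other long genes (10.4%).

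CG1677 on the X chromosome had the most summits, 12, all in its intron 2 of 73.9 kb. Their signals ran from 47.29 to 211.1 with a median of 87.5. The annotated span of CG1677 contains 13 other protein-coding genes, 3 of the summits lay within Dok or Atg5, and none of the 12 had a CG1677 start as its nearest start. The nearest starts were those of CBP, CG42780, Dok, Atg5, brinker (brk) and unc-119, brinker being a repressor of Dpp target genes. The group of 4 next to unc-119 spanned 2.28 kb, with signals between 114.2 and 133.1.

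The corepressor gene sbb (scribbler, also called brakeless) held 11 summits, again all in intron 2, which is 65.7 kb of the 79.1 kb gene. Signals ran from 45.79 to 367.7 with a median of 108.1. In 6 of the 11 the nearest start was an sbb start. The largest cluster of the whole set was here, with 6 summits in 9.24 kb that included 367.7, 289.0 and 208.0. Of the 11 summits, 3 held AAATCA, with its middle 13.5, 18.5 and 25.5 bp from the summit, and 5 overlapped a thresholded peak in each replicate.

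kirre, an immunoglobulin-family adhesion gene of myoblast fusion, spans 394 kb and also held 11 summits. They were more spread out, over 310 kb of introns 2, 3 and 5, with a gap of 198 kb. The strongest reached 203.7 in intron 5, with 126.9 and 85.41 in the replicates, and the other 10 lay between 54.59 and 147.3. The density was 0.279 summits per 10 kb in kirre, against 1.39 in sbb.

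ush encodes u-shaped, a FOG-family cofactor of GATA factors, and held 9 summits, all in intron 1. Their signals ran from 44.33 to 149.0, and they formed a group of 3 near the gene's start and a group of 5 within 9.86 kb near the far end of the intron. The single site between these groups, shown above, was the strongest and read 58.03 in replicate 1 and 89.71 in replicate 2. A stronger peak of the same intron, with a signal of 793.3 in the ranked list that compares the replicates, is absent from the conservative list.

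**Figure D1:**
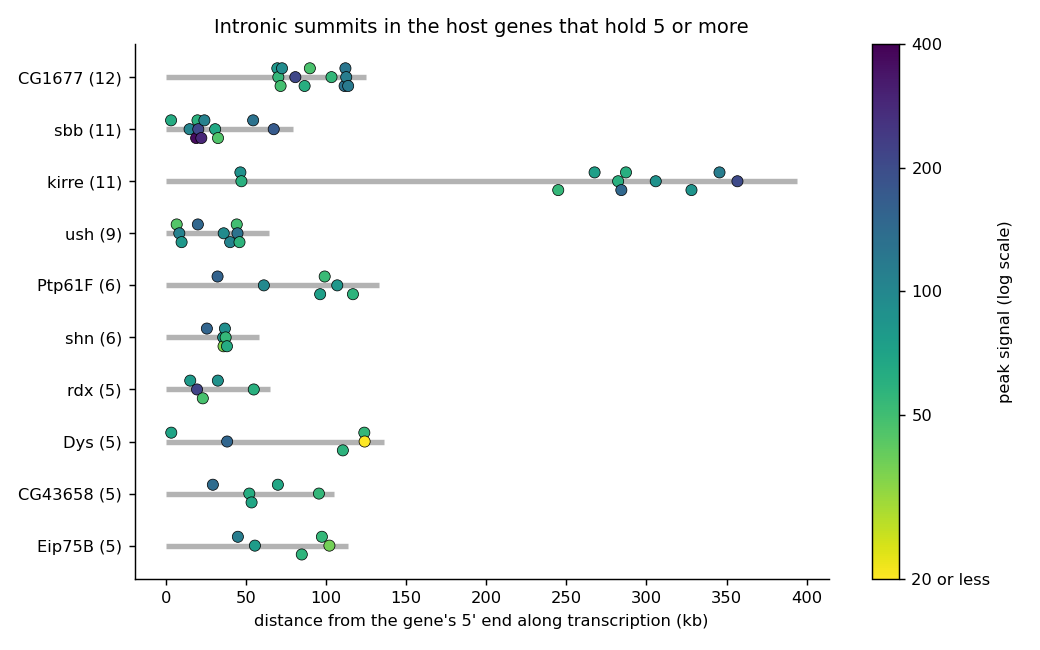
Intronic summits (circles) along the 10 host genes with 5 or more, in kb from the gene's 5′ end, with each gene drawn as a grey bar and its number of summits after its name. Colour gives peak signal on a log scale, and circles are staggered in height only so that neighbours can be seen. The summits of CG1677 span 44.3 kb and those of sbb 64.1 kb, while those of the longer kirre span 310 kb.

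The remaining hosts with 5 or 6 summits were Ptp61F, shn, rdx, Dys, CG43658 and Eip75B. In shn, whose product schnurri is a zinc-finger factor of Dpp signalling, 5 of the 6 summits lay within 2.35 kb of intron 2, and a pair of them belongs to overlapping peaks 204 bp apart. Ptp61F, a tyrosine phosphatase gene, held its 6 in intron 3, none nearest to a Ptp61F start, and a pair lay inside the nested gene ru. Dys, the fly dystrophin gene, held summits in introns 1, 15 and 25, with the strongest, 151.2, in intron 15. Eip75B, an ecdysone-induced nuclear receptor gene, held 5 in introns 3, 4 and 5, with signals up to 114.2. A further 16 genes held 4 each, and their best signals ran from 67.89 in cic to 318.5 in Hr4.

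**Figure D2:**
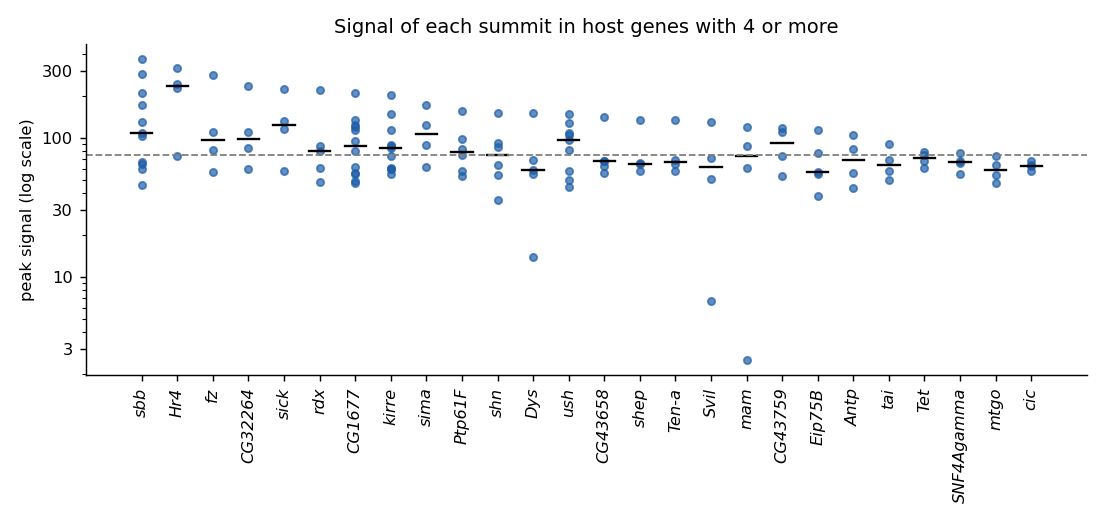
Signal of every intronic summit (circles, log axis) in the 26 host genes with 4 or more, ordered by the strongest, with the gene's median as a black bar and the median of all 319 summits, 74.5, as a dashed line. Most genes have 1 or a few tall sites beside several near the dashed line, and the lone low values in Dys, Svil and mam are weak peaks that overlap a stronger one.

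Within genes, 105 summits (32.9%) formed 42 clusters in 37 hosts when neighbours up to 5 kb apart were joined. After sbb, the largest were groups of 5 in ush and in shn, and groups of 4 in mam and, at a pair of places, in CG1677. mam encodes Mastermind, the co-activator of Notch signalling. Its 4 summits lay in 5.67 kb of intron 3, with a strongest signal of 120.1, and 2 of them held AAATCA. In the Hr4 cluster both members were strong, 318.5 and 228.3, whereas the Fas3 cluster paired 145.9 with 57.27. Not all clustered summits are separate sites, since 13 of the 319 peaks overlap another peak of the list. All 6 summits with a signal under 20, in Dys, Svil, Tlk, RhoU, Bx and mam, belong to peaks that overlap a stronger one, and their scores of 992 to 1000 are as high as those of strong peaks.

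The median signal of the 319 was 74.5, with an interquartile range of 58.2 to 104.2. It was 79.1 for intronic summits of shorter genes, 72.4 for intergenic summits, 84.1 for promoter summits and 78.6 for the whole list. The 720 summits of the whole list with the highest signal included 54 of the 319 (16.9%), 160 of the 713 in shorter genes (22.4%) and 30.5% of promoter summits. These differences were not tested. Per megabase of sequence that could have held such a summit, long genes had 13.7 (12.2 to 15.3, exact Poisson interval at 95%), shorter genes 28.9 (26.8 to 31.1) and intergenic sequence 13.3 (12.1 to 14.6). The intervals cover counting of summits only, and neighbouring summits are not independent.

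Among chromosome arms, the density in long genes was 20.4 per megabase on 2L, 16.8 on X, 12.9 on 2R, 12.8 on 3L and 11.0 on 3R. The counts were 66, 78, 48, 59 and 68. None was found in the 0.879 Mb of such sequence on Y, for which the exact Poisson bound is 4.197 per megabase, or in the 0.0167 Mb on chromosome 4, for which it is 221. The eligible sequence includes long genes without a summit, such as Myo81F (1966 kb) and Pzl (709.4 kb), both on 3R. Their sequence counts in the density of 3R, in that of all long genes and in the eligible distances below. Values without such genes were not computed, and mapping in repeats was not tested.

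By intron number, counted in the longest transcript of the host that holds the summit in an intron, 75 summits lay in intron 1, 110 in intron 2, 46 in intron 3 and 88 in intron 4 or later, up to intron 25 in Dys. The introns were long, with a median of 35.96 kb and a range of 1.501 to 132.7 kb. Counted in the host's longest transcript, 70 summits (21.9%, exact binomial interval 17.5 to 26.9%) were in intron 1, which made up 17.8% of the eligible sequence. Intron number depends on the transcript. Over all host transcripts that hold the summit, 165 summits were in intron 1 of some transcript and 52 in intron 1 of every one.

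The summits lay nearer to transcript starts than the sequence they were drawn from. The median distance was 4179 bp (interquartile range 1883 to 8500.5 bp), against 7380 bp for all eligible positions, a difference given without a test. Within 5 kb of a start lay 183 summits (57.4%, interval 51.7 to 62.9%) against 36.9% of eligible sequence, and within 2 kb 88 summits (27.6%, interval 22.8 to 32.8%) against 14.7%. The most distant was in hth, a homeodomain cofactor gene of Hox proteins, 47355 bp from any start. The nearest start belonged to the host in 159 cases (49.8%). Of the other 160, 60 were starts of another protein-coding gene, 48 of a non-coding RNA and 50 of an annotated transposable element. With transposable elements and pseudogenes left out of the annotation, the same rule again gave 319 summits in 131 genes. The distances to starts were not recomputed without them.

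**Figure D3:**
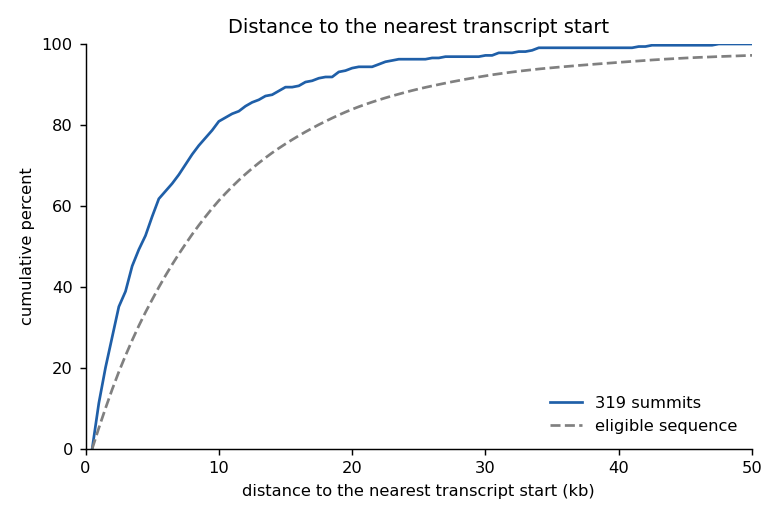
Cumulative percent of the 319 summits (solid line) and of all eligible intronic sequence of long genes (dashed line) by distance to the nearest transcript start in kb. The summit curve lies above the sequence curve throughout, with 57.4% against 36.9% at 5 kb, and both start at 0.5 kb because nearer summits were not selected.

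The Hox genes Antp and Ubx and the Hox cofactor gene hth each held sites. Antp held 4 summits, all in intron 2 and all also inside the annotated gene CG46458, with signals of 104.4, 82.86, 55.51 and 43.31. Ubx held 1, with a signal of 139.1 in its intron 3, 17179 bp from the nearest start, and replicates at 82.03 and 59.97. hth held 3, in introns 3, 6 and 11, at 108.6, 86.68 and 63.46. The strongest site of each of these genes held AAATCA, as printed above, and the other summits of Antp and hth did not. The printed windows were chosen for holding it.

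Of 28 long genes on a list of transcription factors and cofactors, 21 (75%) held a site, with 64 summits in all, where 41.9% of all long genes did. Besides sbb, Hr4 and ush these included sima, the fly HIF-alpha gene (4 summits, best 171.7), EcR, the ecdysone receptor gene (1, 121.5), pnt, an ETS-factor gene (2, 95.76), and ct, a homeodomain gene (2, 72.86). The 7 without a site were ab, bab1, br, lola, fru, Eip93F and ftz-f1. The list does not hold every long gene of this kind, shn for example, and was chosen with earlier results of these data known. The median of the best signal per host was 96.1 in this list and 96.6 over all 131 hosts.

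Ion channels, transmitter receptors and synaptic proteins stood at the other end. Of 21 long genes, 2 (9.52%) held a site, dnc, a cAMP phosphodiesterase gene, with 2 summits up to 100.8, and Elk, a potassium channel gene, with 1 of 71.93. The 19 without a site included the sodium channel gene para, the potassium channel genes Sh, Shab and eag, the calcium channel gene cac and 5 nicotinic receptor subunit genes.

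Cell adhesion and axon guidance genes were near the share of all long genes, with hosts in 13 of 36 (36.1%). The strongest after kirre were Sema1a, a guidance ligand (1 summit, 173.7), and Fas3, a homophilic adhesion gene (3, best 145.9). CadN, Lar, Fas2 and Ten-m held none, while Ten-a, a teneurin, held 4 (best 133.0). Signalling genes were hosts in 7 of 11 (63.6%), led by fz, by fz2, a second Wnt receptor gene with a site of 179.8, and by RhoGEF64C at 111.9. RNA-binding protein genes were hosts in 8 of 15 (53.3%), led by mub, by shep at 135.0 and by pum, a translational repressor, at 133.7. Muscle and cytoskeleton genes were hosts in 5 of 9 (55.6%), led by Dys, by scrib, a cell polarity gene, at 142.7 and by Msp300, a nesprin gene, at 101.7. The 6 lists together had 56 hosts among 120 long genes (46.7%). These are counts without a test, and the last 3 lists are short.

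The replicates were compared through their own peak lists. Of the 319 sites, 109 (34.2%, exact binomial interval 29.0 to 39.7%) overlapped a thresholded peak in both replicates, 68 in replicate 1 only, 33 in replicate 2 only and 109 in neither. Over all 2883 summits, 40.55% overlapped one in both and 30.07% in neither. The thresholded lists hold 1960 peaks for replicate 1 and 1636 for replicate 2 on these chromosomes, fewer than the conservative list, so not every summit could be matched. Nearly all, 317, had a ranked peak, without a threshold, in both. Across these 317 pairs the signals had a Spearman correlation of 0.565 and a Pearson correlation of 0.728 on log2 values, as a description of peaks that are not independent and were selected for reproducibility. Support was found mostly at strong sites, which is partly built in, because the signal was made from the same replicates. With the sites split into 4 groups by signal, 73 of the 80 strongest (91.2%) were in both lists, then 33 of 80 (41.2%), 0 of 80 and, in the weakest group, 3 of 79 (3.797%). Of the 50 strongest, 49 were in both, and the strongest site found in neither had a signal of 79.2.

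Both-replicate support was 34.2% in long genes and 40.5% in shorter ones, a difference of -6.36 percentage points (two-sided Fisher exact test, p = 0.0531). Neither list supported 34.2% and 29.5% (Fisher exact test, p = 0.145). The first difference passed 0.05 under 4 of 11 alternative settings. With the ranked lists it was -0.206 points. That setting leaves little room for a difference, since the replicates had a ranked peak at 317 and 319 of 319 summits in long genes. In shorter genes they had one at 711 and 712 of 713. The difference turned to 6.56 points (Fisher exact test, p = 0.202) when only the strongest summit of each gene was counted. This choice also selects on signal, and the part of signal was not tested.

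**Figure D4:**
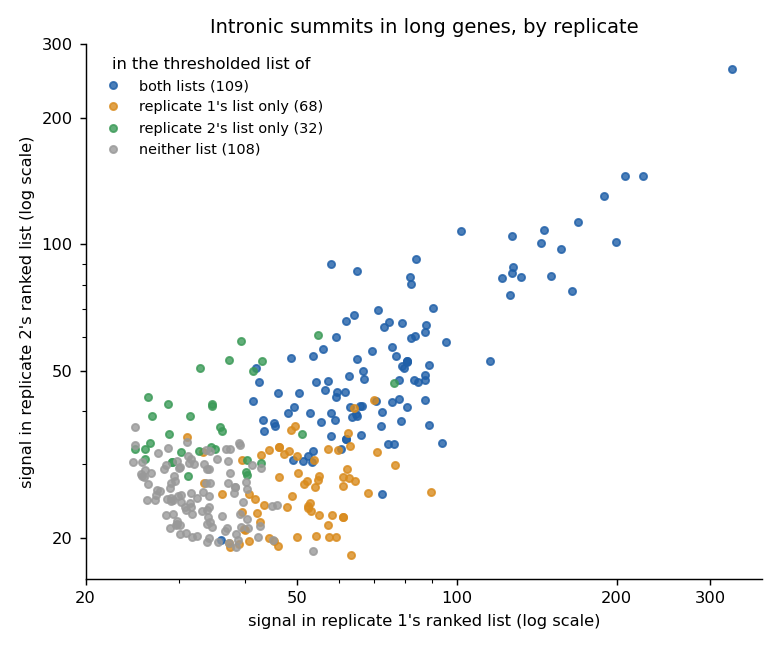
Signal of 317 intronic summits in replicate 1's ranked list (x) and replicate 2's ranked list (y), both on log axes, coloured by which replicate's thresholded list also holds the peak. Sites in both lists (blue) fill the upper right, led by Tlk at 330.5 and 261.0, and sites in neither (grey) the lower left.

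The Senseless core AAATCA was searched, together with its reverse complement, in a window reaching 50 bp to either side of each summit and in an equally wide flank centred 300 bp away. It was present at 50 of 319 summits (15.7%) and in 31 flanks (9.72%). At 46 sites it was in the summit window alone and at 27 in the flank alone (exact McNemar test, two-sided, p = 0.0344). Windows of this width tiled over eligible sequence held it in 12.2% of 225508 cases. That value lies inside the exact binomial interval of the summit share, 11.9 to 20.1%. Over all 2883 summits the share was 17.9%. The difference between summit and flank stayed positive under all 15 alternative settings, between 0.649 and 11.6 points. However, 8 of them, among them each replicate's own list, gave p above 0.05. Here and in the motif tests below each summit is a unit, although summits of 1 gene are not independent. With only the strongest summit of each host gene the difference was 6.87 points (exact McNemar test, p = 0.1755). Summit windows had less GC (36.1%) than flanks (42.7%) and than eligible windows (40.2%), and the part of base composition in the motif difference was not tested beyond the shuffled controls below.

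In 29 of the 50 windows with the core it lay within 25 bp of the summit. The share for cores placed evenly over the window was not computed, so this count does not show centring on the summit. These 50 sites fell in 43 host genes. Their median signal was 74.6 against 74.5 for the 269 without. In the 4 groups by signal, 13, 12, 16 and 9 sites held it, from the strongest to the weakest.

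In introns of shorter genes AAATCA was present at 150 of 713 summits (21.0%) and in 9.82% of flanks (exact McNemar test, p = 1.26e-08). The share in long genes was lower by 5.36 points (15.7 against 21.0%, two-sided Fisher exact test, p = 0.0498), and 9 of 13 alternative settings gave p above 0.05. The lower share in long genes therefore depended on the setting, although its sign was the same in all 13. With only the strongest summit of each host gene the difference was -2.43 points (Fisher exact test, p = 0.630).

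A panel of 11 other motifs gave no call at the long-gene sites after Benjamini-Hochberg adjustment, and 1 (CAGCTG) at an unadjusted 0.05. The GATA-factor motif GATAAG was at 6.90% of summits and 5.64% of flanks (exact McNemar test, adjusted p = 1.00), while in shorter genes it was at 10.9% and 4.35% (adjusted p = 1.61e-05). Windows tiled over the eligible sequence of long genes held GATAAG in 3.86% of cases, a comparison without a test. The difference between the gene classes was not tested for this motif. CAGCTG, an E-box of the kind bound by bHLH factors, was at 5 summits and 16 flanks (exact McNemar test, p = 0.0266, adjusted p = 0.293). The shuffled controls CATAAA and TACAAA, with the base content of the core, were at 10.03 and 11.6% of summits and at 11.6 and 10.7% of flanks. In shorter genes, CATAAA was itself higher at summits, 15.6% against 10.4% (exact McNemar test, adjusted p = 0.0177).

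**Figure D5:**
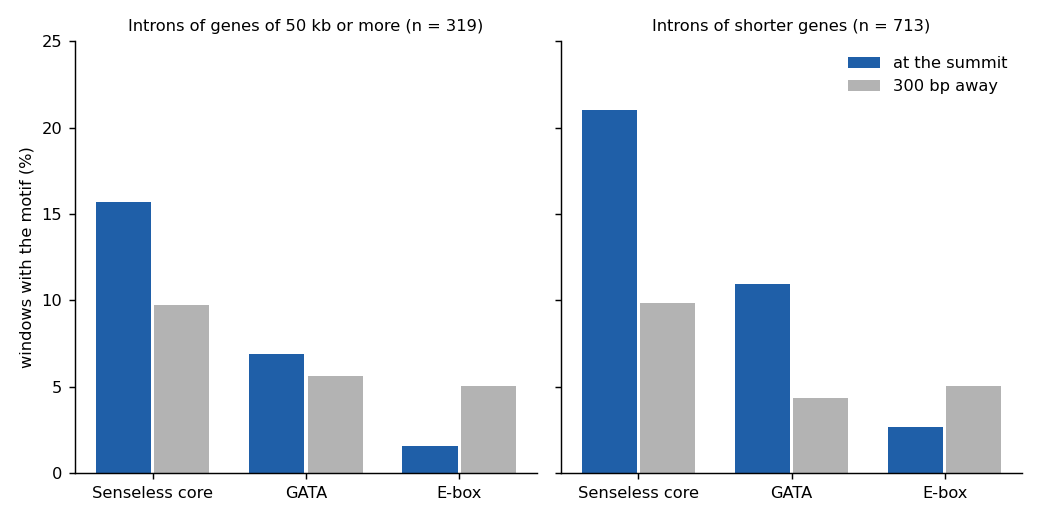
Percent of windows, 50 bp to either side, with the Senseless core (AAATCA), the GATA motif (GATAAG) and an E-box (CAGCTG) at summits (blue) and 300 bp away (grey), for introns of genes of 50 kb or more (left, 319 summits) and of shorter genes (right, 713). The core is at 15.7% against 9.72% on the left and at 21.0% against 9.82% on the right.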

How the data were processed

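ChIP-seq peaks were analysed for 2 biological replicates, numbered as in the labels. The 8 deposited lists give peaks on dm6, per the labels. The authors gave each peak a signal value on the scale of its list and an IDR-based score, at least 830 in the deposited main list. For the aligner and the peak caller, names and versions were not given in the sources used here. Peaks were deposited per replicate and across both replicates. Read depth is unknown, and intervals at 95% cover counting only.

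Of 2899 peaks in the conservative list, 16 off the 7 assembled chromosomes were left out. Genes came from Ensembl release 115 (BDGP 6.54), with all gene types used for starts and exons, and sequence from Release 6, which has the coordinates of dm6. The host was the longest protein-coding gene holding the summit, and a tie in length went to the higher gene identifier. Peaks overlapped when they shared at least 1 bp. The flank lay upstream for odd and downstream for even peak numbers. Motif tests were adjusted over the 11 panel motifs. Named genes were the hosts of the 15 strongest summits, hosts with 4 or more, and the 3 hosts per list with the strongest summit, with further list members chosen after their values were seen. Of the genes in 6 lists, 10 had no annotated gene of that name. The members, lists and tests were chosen with earlier results of these data known. Scripts used Python 3.11.15 with pandas 2.3.3 and scipy 1.17.1 and were tested on simulated data. Alternatives were other lists, each replicate's list, stronger peaks, other promoter windows, gene lengths, motif windows and flanks, an annotation without transposable elements, and other overlap rules. Added after seeing the data were the strongest summit per gene, the list without signals under 20, and the share of long genes without Y and chromosome 4.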

Additional observations from a re-analysis of the deposited data

Results flagged for a closer look

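The ranked list that compares the replicates contains 3 peaks at intronic summits of long genes that reach the threshold score of 830 but are absent from the conservative list. All 3 lie in intron 1 of ush, which already hosts 9 summits. The strongest, at 2L:480967-481210 on dm6, had a signal of 793.3, against 588.6 for Tlk in the same ranked list, and would rank 5 among the conservative peaks, whose signals are identical in both lists. It read 541.4 in replicate 1 and 285.8 in replicate 2. The other 2 had signals of 88.31 and 78.48. None of the 3 overlapped a peak in any of the 4 thresholded lists. The reason for its absence was not tested.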

How the results depend on the processing

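The count of 319 summits became 513 with host genes of 30 kb or more, 104 with 100 kb or more and 146 with peaks at or above the median signal, and 154 to 204 when a replicate was left out, that is, in the thresholded list of the other replicate. Host genes numbered 243 at 30 kb and 35 at 100 kb. The AAATCA difference between summit and flank lost its call with the other thresholded list (5.15 points, exact McNemar p = 0.0784), peaks at or above the median signal (5.48), host genes of 100 kb or more (3.85), the window of 25 bp to either side (3.76), flanks 1000 bp away (4.39) and the strongest summit per gene (6.87), and ran from 0.649 to 5.88 points when a replicate was left out. The lower AAATCA share in long genes lost its call with the other thresholded list (-4.37 points), peaks at or above the median signal (-5.64), the 1000-bp promoter window (-4.96), host genes of 30 kb (-4.81) and 100 kb (-6.58), the window of 100 bp to either side (-1.01) and the strongest summit per gene (-2.43), and ran from -5.65 to -0.774 when a replicate was left out. The difference in replicate support passed 0.05 with the 1000-bp promoter window (-8.21 points), without transposable elements and pseudogenes (-6.63), with an overlap of 50% of the shorter peak (-6.60) and without signals under 20 (-6.87), and reversed to 6.56 with the strongest summit per gene. It shrank to -0.206 with the ranked lists (Fisher exact p = 0.647), -3.25 with the other thresholded list (p = 0.305), -3.23 with peaks at or above the median signal (p = 0.497) and -3.82 with host genes of 30 kb (p = 0.224). By exact McNemar tests, the panel gained 1 call, CAGCTG, with host genes of 30 kb (-4.29 points, adjusted p = 0.00748) and with the window of 100 bp to either side (-7.21, adjusted p = 0.0120). GATAAG reversed with the other thresholded list (-0.303), peaks at or above the median signal (-0.685), host genes of 100 kb (-3.85) and the window of 25 bp to either side (-0.314), and ran from -0.490 to 3.25 when a replicate was left out. The clusters numbered 27 with a gap of 2 kb and 52 with 10 kb. The causes were not tested. No analysis paired between groups was possible because the series has 1 group.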
